A study of Homo sapiens with 8 samples.

Results

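The 8 genes described here, TP53INP1, BBC3, SESN2, TIGAR, CDKN1A, MDM2, GDF15 and FAS, are direct targets of the tumour suppressor p53. They were taken by symbol from the 20037 protein-coding genes that the RefSeq table places on a chromosome, and each was searched for RFX7 ChIP-seq peaks. The rule was a summit (the highest point of a peak) within 50 kb of either end of the gene. ChIP-seq sequences the DNA fragments pulled down with an antibody against a protein, here RFX7, from HCT116 cells, a human colorectal carcinoma line with functional p53. Nutlin-3a at 10 µM or the solvent DMSO was given for 24 h. For each of both treatments 2 ChIP libraries and 2 inputs (chromatin without immunoprecipitation) were made, 8 samples in all. The deposited data were 1 list of peaks per treatment, with 505 peaks for DMSO and 622 for Nutlin-3a, and no value per replicate. Every value below therefore stands without replicate error, no difference between treatments was tested, and the sequencing depth of each sample is unknown.

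p53 is a transcription factor that is kept at a low level by the ubiquitin ligase MDM2. Nutlin-3a blocks the contact between both proteins, so p53 accumulates and switches on genes for cell cycle arrest, cell death and metabolic control. RFX7 belongs to the RFX family of winged-helix transcription factors, which recognise the X-box, a DNA element built from inverted copies of a hexamer such as GTTGCC. RFX7 is known to act downstream of p53 and to extend its reach to genes that p53 does not bind itself. The comparison here asks which genes that p53 regulates directly also had an RFX7 site nearby and which did not.

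Of the 8 genes, 4 had a summit within 50 kb under DMSO and the same 4 had one under Nutlin-3a. They were TP53INP1, BBC3, SESN2 and TIGAR. CDKN1A, MDM2, GDF15 and FAS had none in either list. Over all 20037 protein-coding genes, 2.03% had a summit within 50 kb under DMSO and 3.04% under Nutlin-3a. In either list it was 3.37%, and in both lists 1.70%. The 8 genes were picked with earlier results of these lists known, so the excess over the background says nothing about p53 targets in general. The distances also differ widely among the 4 genes. Within 5 kb lay only the TP53INP1 peaks (background 0.764% and 1.08% of genes), and within 10 kb those of TP53INP1 and BBC3 (0.918% and 1.32%).

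The deposited lists carry no sequence, so the letters shown here are those of RefSeq promoter windows (GRCh38.p14), which run from 250 bases before to 50 bases after a transcript's start. The table held 1 window each for BBC3, SESN2, TIGAR, CDKN1A and GDF15, 3 for FAS and 4 for MDM2. No window was used for TP53INP1. None of these windows was overlapped by a peak of either list. The 250 bases before the transcript start are shown for BBC3 and SESN2, which had a peak farther upstream, and for CDKN1A, which had none. For BBC3 and CDKN1A that start lies inside the gene's annotated span and is not the gene end used for the distances. Capitals mark the RFX hexamer GTTGCC or its reverse complement GGCAAC, searched on both strands.
BBC3 promoter (chr19:47232668-47232917, minus strand): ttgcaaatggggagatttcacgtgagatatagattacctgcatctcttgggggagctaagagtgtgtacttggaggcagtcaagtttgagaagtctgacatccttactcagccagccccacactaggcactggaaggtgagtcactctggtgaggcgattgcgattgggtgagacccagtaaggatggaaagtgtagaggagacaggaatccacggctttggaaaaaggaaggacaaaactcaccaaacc
SESN2 promoter (chr1:28259268-28259517, plus strand): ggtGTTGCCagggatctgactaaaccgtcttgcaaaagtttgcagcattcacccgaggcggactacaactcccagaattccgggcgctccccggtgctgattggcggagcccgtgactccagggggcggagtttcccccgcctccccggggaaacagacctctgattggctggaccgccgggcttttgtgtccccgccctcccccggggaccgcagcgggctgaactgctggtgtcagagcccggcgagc
CDKN1A promoter (chr6:36678464-36678713, plus strand): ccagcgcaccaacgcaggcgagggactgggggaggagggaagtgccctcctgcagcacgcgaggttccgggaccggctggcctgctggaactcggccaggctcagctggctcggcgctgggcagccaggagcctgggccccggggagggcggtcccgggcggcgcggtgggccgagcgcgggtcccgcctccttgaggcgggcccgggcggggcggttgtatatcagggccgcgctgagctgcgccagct

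SESN2 was the only one of the 7 genes with a window to hold the hexamer, with its first base 247 bases before the transcript start. That position is about 12 kb from the SESN2 peak, whose own sequence was not used here. The hexamer occurred in 12.2% of all 35116 promoter windows and in 35 of the 105 windows that held a summit of either list, or 33.3%. Windows of neighbouring transcripts overlap, so these counts are not independent. With any base allowed at the fourth position, which turns the search into GTTNCC and, on the other strand, GGNAAC, 45.4% of all windows and 55.2% of those with a summit had a match. SESN2 and 1 of the 3 FAS windows matched this looser form.

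The windows were also searched for the p53 response element, the consensus of 2 adjoining decamers that a p53 tetramer binds. A match required all 4 fixed C and G bases and allowed up to 3 mismatches elsewhere in the 20 bases. The consensus is its own reverse complement, so both strands were covered. Such a match stood in 2 of the 4 MDM2 windows, 1 of the 3 FAS windows and the only GDF15 window, and in 1.12% of all windows. None of these genes had an RFX7 peak nearby. The genes with a peak had 1 window each or none, so both sets cannot be compared by this search. Capitals mark the matched bases, with up to 5 bases on either side.
MDM2 (chr12:68808918-68808947, plus strand): gagctGGTCAAGTTCAGACACGTTCcgaaa
FAS (chr10:88991304-88991333, plus strand): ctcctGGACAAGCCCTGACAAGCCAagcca
GDF15 (chr19:18386181-18386207, plus strand): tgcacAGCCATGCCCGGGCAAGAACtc

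The MDM2 match had 2 mismatches and began 94 or 101 bases before the starts of 2 near-identical windows that lie inside the gene, at the internal promoter through which p53 is known to act. The FAS match had 2 mismatches and began 122 bases before an internal start of that gene. In GDF15 the match had 3 mismatches and began at base 29 of the transcript. The windows of BBC3, SESN2, TIGAR and CDKN1A had no match. That says only that these letters are not in these short windows, since p53 elements of several of these genes are known to lie farther upstream or in introns.

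TP53INP1 encodes a stress-induced protein that takes part in p53-driven cell death and in autophagy. It lies on chromosome 8, and its peak was the only one at a gene end. The DMSO summit lay 58 bp beyond the end with the higher coordinate and the Nutlin-3a summit 90 bp beyond it. The strand of this gene was not used here. The DMSO peak was 509 bp wide and ranked 23 of 505 by fold enrichment, the authors' ratio of ChIP signal to local background. Its fold enrichment was 9.85, at a −log10 q of 61.9. The overlapping Nutlin-3a peak was 413 bp wide and reached a fold enrichment of 15.1 at a −log10 q of 148 (rank 20 of 622). Each peak thus stood in the top part of its own list. Fold and rank place a peak within its list and give no change between treatments.

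The Nutlin-3a list had a further peak at TP53INP1, 439 bp wide, with its summit 740 bp beyond the same gene end. It was the weakest peak near any of the 8 genes in that list, at rank 276, enriched 3.66-fold at a −log10 q of 9.43. It overlapped no DMSO peak, the gap to the TP53INP1 peak of the DMSO list being 189 bp. Both positions lie within the annotated span of NDUFAF6, a gene for a mitochondrial complex I assembly factor, whose nearer end was 53637 bp from the DMSO summit. The end of CCNE2, which encodes cyclin E2, was 52743 bp away. No other protein-coding gene end was nearer than that of TP53INP1.

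Under the formulas of MACS2, a peak caller that the submitters' processing notes name, fold and p together fix the pileup (the number of extended ChIP reads stacked at the summit) and the local background. At TP53INP1 the DMSO entry gave a pileup of 102 over a background of 9.45. The Nutlin-3a entries gave 188 over 11.5 and 46 over 11.8. All 3 solutions were whole numbers, as counted reads require. The depths of the lists are unknown, so 102 and 188 are not comparable between treatments.

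BBC3 encodes PUMA, a BH3-only protein that triggers apoptosis at mitochondria. The gene lies on chromosome 19 (47220824 to 47232860, minus strand), and its peak was upstream. The DMSO peak (47241193 to 47241540) had its summit 8342 bp from the gene's start, and the Nutlin-3a peak (47241162 to 47241664) 8422 bp. Fold enrichment was 5.23 with a −log10 q of 45.3 in the DMSO list, at rank 87 of 505. It was 19.95 with a −log10 q of 121 in the Nutlin-3a list, at rank 13 of 622, the highest rank by fold of any peak near the 8 genes. The Nutlin-3a entry gave a pileup of 130 over a background of 5.57. The DMSO entry gave no whole-number pileup, so its fold and its rank by fold are uncertain. Whether its fold and its p belong to the same call was not tested.

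BBC3 was the protein-coding gene with the nearest end to this peak in both lists. The next was CCDC9, whose start lay 15323 bp from the DMSO summit, followed by SAE1 (30566 bp), a subunit of the SUMO-activating enzyme, and INAFM1 (33221 bp). The summits fell inside the long non-coding RNA gene LOC124904731, 2527 bp (DMSO) and 2607 bp (Nutlin-3a) from its nearer end.

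SESN2 encodes sestrin 2, which restrains the growth kinase mTORC1 under stress. It lies on chromosome 1 (28259518 to 28282491, plus strand). Its peak was 12184 bp upstream of the start with DMSO (28247222 to 28247544) and 12096 bp upstream with Nutlin-3a (28247205 to 28247614). The DMSO peak was enriched 5.42-fold (−log10 q 11.3, rank 80 by fold) and gave a pileup of 33 over a background of 5.27. The Nutlin-3a peak was enriched 6.53-fold (−log10 q 30.8, rank 93). It gave no whole-number pileup, so its rank by fold is uncertain. SESN2 was not the nearest gene. ATP5IF1, which encodes the inhibitory factor of the mitochondrial ATP synthase, ended 9234 bp from the DMSO summit, and DNAJC8 started 14305 bp from it. No annotated gene spanned the summit.

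TIGAR encodes a phosphatase that lowers fructose-2,6-bisphosphate and slows glycolysis. It lies on chromosome 12 (4321213 to 4360028, plus strand). Its peak only just met the limit, with the summit 49374 bp upstream of the start with DMSO (4271689 to 4272170) and 49499 bp upstream with Nutlin-3a (4271689 to 4272270). The same peak was 1923 bp and 2048 bp from the nearer end of CCND2, which encodes cyclin D2, and lay inside its antisense transcript CCND2-AS1. Fold enrichment was 5.82 in the DMSO list, with a −log10 q of 25.2 and rank 68. In the Nutlin-3a list it was 6.12, with a −log10 q of 25.8 and rank 107. Neither entry gave a whole-number pileup, so both ranks by fold are uncertain. The gene just outside the limit was GDF15, at 105 kb in the DMSO list.

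**Figure D1:**
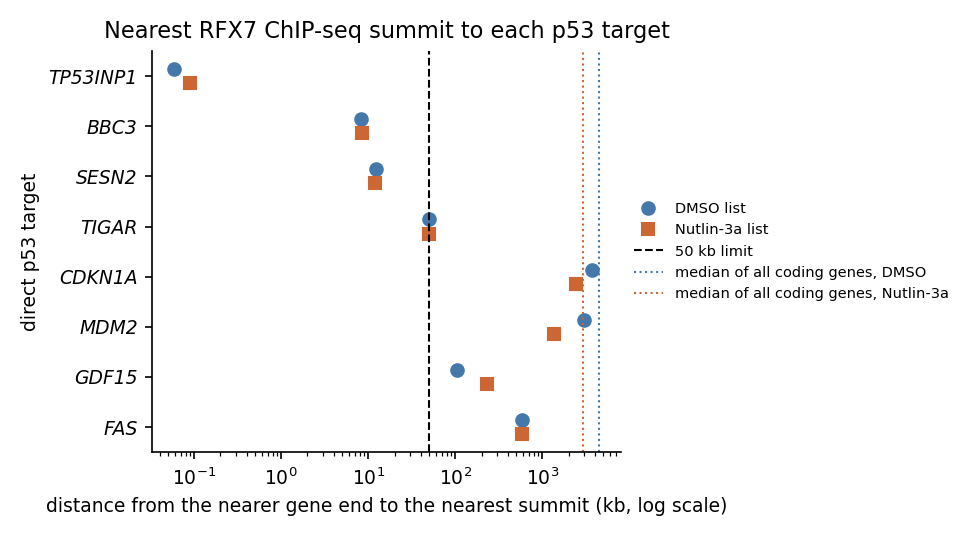
Distance in kb (log scale) from the nearer end of each of the 8 p53 targets to the nearest summit, circles for the DMSO list and squares for the Nutlin-3a list; the dashed line is the 50 kb limit and the dotted lines are the medians over all protein-coding genes (4507 kb for DMSO, 2963 kb for Nutlin-3a). TP53INP1, BBC3, SESN2 and TIGAR lie left of the limit in both lists, TIGAR by under 1 kb, and the other genes lie between 105 kb and 3704 kb.

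The peaks of the 4 genes recurred at nearly the same place under both treatments. All 4 DMSO peaks and 4 of the 5 Nutlin-3a peaks overlapped a peak of the other list, against 74.3% of all DMSO peaks and 56.9% of all Nutlin-3a peaks. The DMSO peak lay wholly within the Nutlin-3a peak at BBC3, SESN2 and TIGAR, and 76.0% of it did so at TP53INP1. The summits of both lists were 32 bp apart at TP53INP1, 80 bp at BBC3, 88 bp at SESN2 and 125 bp at TIGAR. The Nutlin-3a peak was the wider at BBC3 (503 against 348 bp), SESN2 (410 against 323 bp) and TIGAR (582 against 482 bp) and the narrower at TP53INP1 (413 against 509 bp).

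**Figure D2:**
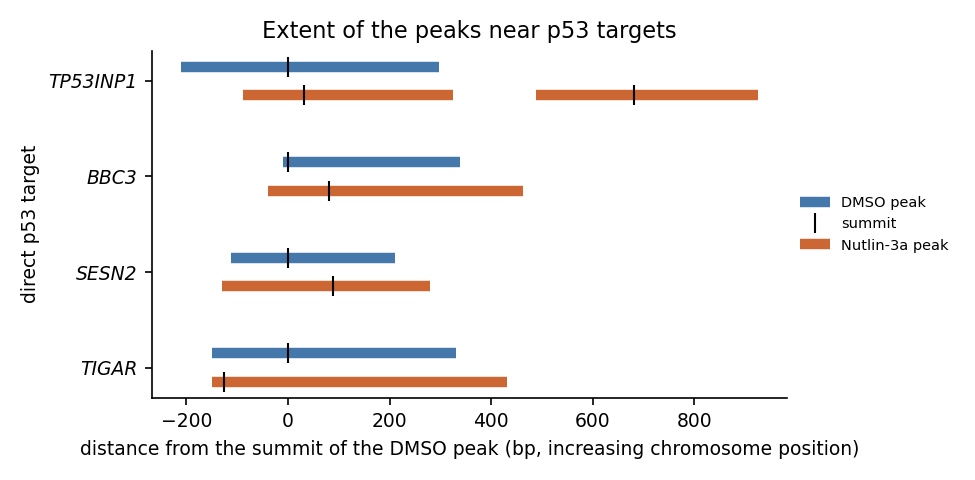
Extent of the peaks near TP53INP1, BBC3, SESN2 and TIGAR in bp from the summit of the DMSO peak, with a bar per peak (blue DMSO, orange Nutlin-3a) and a tick at each summit. The Nutlin-3a bars cover the DMSO bars at BBC3, SESN2 and TIGAR, and the second Nutlin-3a peak at TP53INP1 follows the DMSO peak after a gap of 189 bp.

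Within their lists, the peaks near these genes ranged from a rank by fold of 23 to 87 with DMSO and from 13 to 276 with Nutlin-3a. By −log10 q the DMSO peaks stood lower, at rank 103 for TP53INP1, 142 for BBC3, 207 for TIGAR and 308 for SESN2. In the Nutlin-3a list these ranks were 49 and 455 for the TP53INP1 peaks, 69 for BBC3, 263 for SESN2 and 290 for TIGAR. The peak nearest to TP53INP1 and the BBC3 peak were thus ahead of those of SESN2 and TIGAR by q in both lists, while the second TP53INP1 peak was behind them. By fold, BBC3 stood behind SESN2 and TIGAR in the DMSO list, where its entry and that of TIGAR gave no whole-number pileup. Each rank by fold, those of entries with a whole-number pileup included, also depends on the folds of all other entries. Only 79.4% of the DMSO entries and 63.3% of the Nutlin-3a entries gave such a pileup, so all ranks by fold share this uncertainty.

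**Figure D3:**
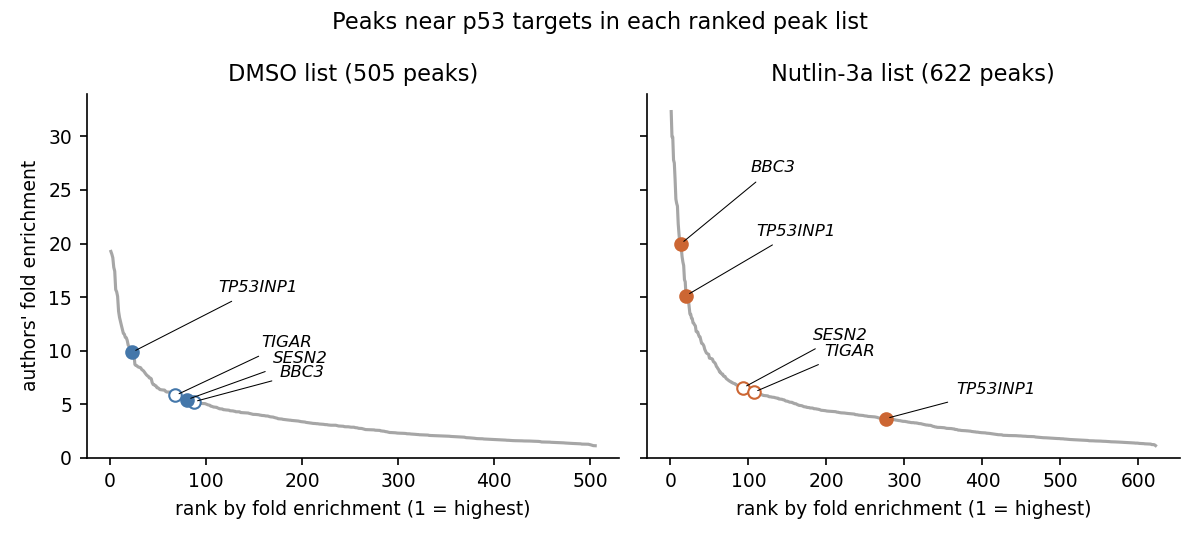
The authors' fold enrichment against rank within each list, all peaks as a grey line and the peaks near p53 targets as circles, filled where the entry gave a whole-number pileup and open where it did not. TP53INP1 (rank 23) leads these peaks in the DMSO list; BBC3 (rank 13) and TP53INP1 (rank 20) lead in the Nutlin-3a list, and the second TP53INP1 peak stands at rank 276.

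CDKN1A encodes p21, the cyclin-dependent kinase inhibitor that mediates p53-driven arrest. It lies on chromosome 6 (36676463 to 36687332), and no summit came within 500 kb in either list. The nearest DMSO summit was 3704 kb away, inside BRD2. The nearest Nutlin-3a summit was 2438 kb away, at a peak that was not shared with the DMSO list. It lay 141 bp from an end of LOC124901225, the nearest protein-coding gene, and 1648 bp from an end of HMGA1. Of all protein-coding genes, 45.6% had a nearer summit than CDKN1A with DMSO and 45.8% with Nutlin-3a, close to the middle of the genome's distribution.

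MDM2, whose product holds p53 in check, lies on chromosome 12 (68808172 to 68850686) and likewise had no summit within 500 kb. The nearest summit was 2981 kb away in the DMSO list, inside HMGA2. In the Nutlin-3a list it was 1366 kb away, at a 51-bp peak that was not shared and stood 122059 bp from the nearest protein-coding gene, CAND1. A nearer summit was found for 41.4% of genes with DMSO and 32.8% with Nutlin-3a. The DMSO peak had a −log10 q of 4.95 and the Nutlin-3a peak one of 6.83. Among peaks with a −log10 q of at least 10, the nearest summit was 11056 kb away with DMSO and 2982 kb with Nutlin-3a. MDM2 and TIGAR lie on the same chromosome, one without and the other with a summit in the 50 kb window.

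GDF15 encodes a secreted stress cytokine of the TGF-beta superfamily. It lies on chromosome 19 (18386158 to 18389176), in the most gene-rich surroundings of the 8, with 6 other protein-coding genes within 100 kb against 3 to 5 for the others. The nearest DMSO summit was 105 kb away, in a peak inside JUND (18280618 to 18280797) that was enriched 4.77-fold at a −log10 q of 13.8. This peak overlapped none of the Nutlin-3a list. The nearest Nutlin-3a summit was 229 kb away, inside PIK3R2 (18156909 to 18157729), with a −log10 q of 95.9, and had a counterpart in the DMSO list. GDF15 was nearer to a summit than most genes, since 3.32% of genes with DMSO and 8.83% with Nutlin-3a were nearer still.

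FAS encodes the death receptor CD95. It lies on chromosome 10 (88964050 to 89017059), with its nearest summit 577 kb away in both lists. This was a shared peak, enriched 5.08-fold under DMSO and 7.04-fold under Nutlin-3a, about 196 kb from LIPJ, the nearest protein-coding gene. The DMSO entry gave no whole-number pileup, so its fold is uncertain. A nearer summit was found for 12.6% and 17.7% of genes.

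The genes with and without a nearby peak overlapped in size. Those with a peak spanned 12037 bp (BBC3) to 38816 bp (TIGAR), and those without spanned 3019 bp (GDF15) to 53010 bp (FAS). Both sets hold genes of several roles: BBC3 and FAS act in cell death, TP53INP1 in cell death and autophagy, SESN2 and TIGAR in metabolism, CDKN1A in arrest, MDM2 in feedback and GDF15 in secretion.

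A further 34 direct p53 targets, grouped by role, were measured by the same rule, and 1 had a summit within 50 kb, BTG2 (2.94%, against 2.03% and 3.04% of all protein-coding genes). None of 10 genes for apoptosis and death receptors, 7 for DNA repair and 8 for metabolism and autophagy had a summit in that range, and 1 of 9 for cell cycle and checkpoint control did. Their median distance was 5968 kb with DMSO and 4059 kb with Nutlin-3a, against 4507 kb and 2963 kb for all genes. SESN1, the paralogue of SESN2, was among those without a peak. BTG2 encodes an antiproliferative protein of the TOB/BTG family, and its summit was 17559 bp (DMSO) and 17859 bp (Nutlin-3a) downstream of the gene's end, with an end of FMOD nearer at 13467 bp and 13167 bp. The BTG2 peak ranked 3 of 622 by fold in the Nutlin-3a list, at 29.9, and 152 of 505 in the DMSO list, at 4.05. By −log10 q it ranked 13 in the Nutlin-3a list, at 240, and 21 in the DMSO list, at 174. The DMSO entry gave no whole-number pileup, so its rank by fold is uncertain.

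For comparison, 18 genes recalled as RFX7 targets were measured in the same way. Within 5 kb, 11 had a summit with DMSO and 15 with Nutlin-3a, against 0.764% and 1.08% of all protein-coding genes. Within 50 kb it was 12 and 17, against 2.03% and 3.04%. That list was recalled from publications that may rest on these libraries, so its counts are a description. The median distance was 0.635 kb and 0.307 kb. At PDCD4, a translation inhibitor, the summit lay 97 bp (DMSO) and 308 bp (Nutlin-3a) from a gene end, and at RFX5, an MHC class II regulator, 76 bp and 21 bp. Not all of the 18 had a summit so close to a gene end. At PIK3R3 the summit lay 41.8 kb and 42.2 kb from the nearer gene end. In each list it nevertheless fell inside the promoter window of a transcript that starts within the gene. Distances to gene ends can thus overstate the distance to a transcript start. RFX7 itself had none within 50 kb of a gene end in either list. Among the 8 direct p53 targets, TP53INP1 alone had a summit within 5 kb of a gene end. BBC3, SESN2 and TIGAR met the rule through peaks that lay 8 to 49 kb away.

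**Figure D4:**
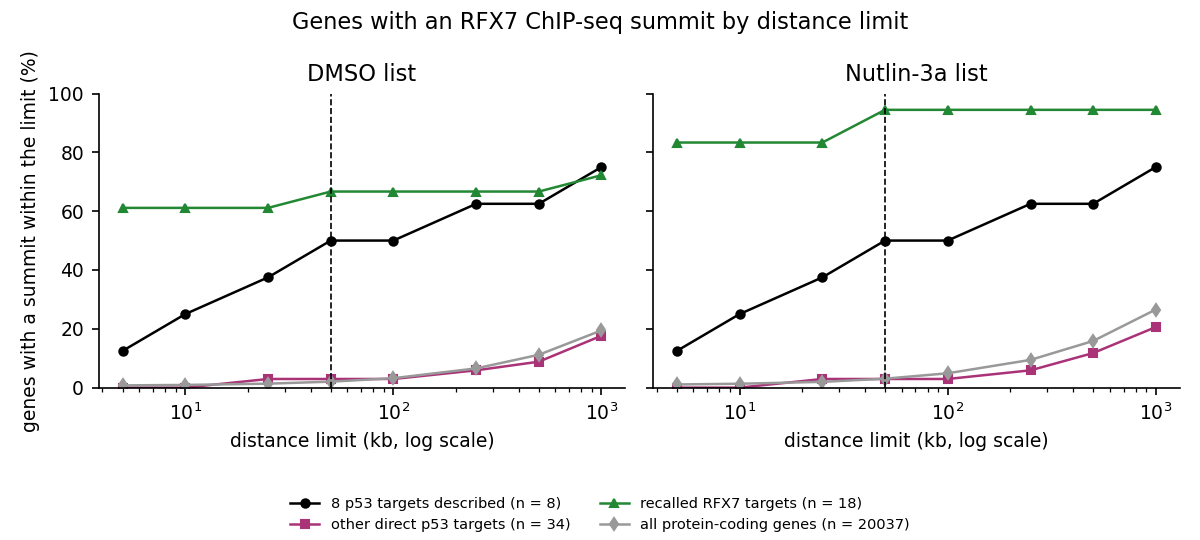
Percent of genes with a summit within a distance limit (kb, log scale) of either end, per list, for the 8 p53 targets described, 34 other direct p53 targets, 18 recalled RFX7 targets and all 20037 protein-coding genes; the dashed line marks 50 kb. The other p53 targets run close to all genes (2.94% against 2.03% and 3.04% at 50 kb), while the 8 described, which were picked with results known, rise from 12.5% at 5 kb to 50% at 50 kb in both lists.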

How the data were processed

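RFX7 ChIP and input libraries were grouped by their titles. The submitters' processing notes name hg38 and, with no role given, Trimmomatic 0.39, cutadapt 2.10, SAMtools 1.10, Picard, MACS2 2.2.7.1 and bedtools 2.29.2. The aligner, the filters and whether replicates were pooled are not given in the sources used here. The authors deposited 1 narrowPeak list per treatment, holding a fold enrichment (a ratio), a −log10 p and a −log10 q per peak. The deposited score equalled the whole part of 10 times that −log10 q in 503 of 505 and 621 of 622 entries. The peak positions, summits included, are as the authors deposited them.

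Each distance is that between a summit and the closer of a gene's ends (RefSeq, GRCh38.p14), computed with Python 3.11.15, pandas 2.3.3 and scipy 1.17.1. All genes named in the lists were matched by symbol. Strand came from the promoter table. Pileup and background were solved from fold and p under MACS2's formulas. Of the DMSO entries 79.4%, and of the Nutlin-3a entries 63.3%, gave a whole-number pileup that met the deposited −log10 p within 0.001 (or within 1e-05 times its value, if larger). The distance and pileup steps were tested on simulated data. An overlap of 1 bp made peaks shared. No test was run, because each treatment has a single list and genes are not replicates. The members and gene lists were chosen with earlier results of these data known. All 8 members are named, with every protein-coding gene whose end was nearer to a member's peak, and every other p53 target with a summit within 50 kb.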

Additional observations from a re-analysis of the deposited data

How the results depend on the processing

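No paired analysis was possible because the peak lists hold no values per replicate. For the same reason no replicate could be left out. The number of the 8 genes with a peak was 4 in each list. It was 1 in each list with a limit of 5 kb, against 0.764% and 1.08% of all protein-coding genes. With 10 kb it was 2, against 0.918% and 1.32%. It was also 2 when a peak counted only for the protein-coding gene with the nearest end, which left TP53INP1 and BBC3. Among entries with a whole-number pileup, an alternative chosen after seeing the data, the number was 2 in each list but not the same pair. These were TP53INP1 and SESN2 in the DMSO list, and TP53INP1 and BBC3 in the Nutlin-3a list. No share of all genes was computed for the nearest-end and whole-number settings. The number of other p53 targets with a peak, 1 in each list, fell to 0 in both at 5 kb, at 10 kb and with the nearest gene only, and to 0 in the DMSO list with a whole-number pileup. The limit of 100 kb, the peak midpoint, the gene body plus 50 kb, −log10 q of at least 10 and shared peaks only left all 4 counts as they were. Of the 9 peaks near the 8 genes, 8 were shared, the number found also when 50% of both peaks had to overlap, and 9 were shared if gaps of at most 500 bp were allowed. CDKN1A, MDM2, GDF15 and FAS stayed at least 105 kb from a summit with the midpoint, −log10 q of at least 10 or shared peaks only. Their distances could move, as for CDKN1A in the Nutlin-3a list, from 2438 kb to 3705 kb with −log10 q of at least 10. Depth per sample is unknown, so an absent peak is one that was not called, not an absence of binding.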
